A study of Saccharomyces cerevisiae x Saccharomyces kudriavzevii and Saccharomyces cerevisiae with 12 samples.

Results

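Expression of the hybrid Lalvin W27 was set against that of the wine strain Lalvin T73 after growth at 28 °C on 3 of the 12 arrays of the series, replicates A, B and C. The arrays were chosen by their titles, and of 6178 ORFs (open reading frames) on them, 6171 had a value on 2 or more of the 3 arrays and 5982 on all of them. Lalvin W27 is a cross of Saccharomyces cerevisiae with S. kudriavzevii, T73 is S. cerevisiae, and both fermented Tempranillo must at 28 °C and were harvested early in stationary phase. The other groups used here were VIN7, a hybrid of the same species, at 28 °C and Lalvin W27 at 12 °C, each on 3 arrays with T73 of the same temperature as the second sample. The T73 control of the 12 °C arrays was therefore another one.

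Wine yeasts turn the sugars of grape must into ethanol and release higher alcohols and esters on the way, which give wine much of its aroma. Hybrids of these species ferment well in the cold, as S. kudriavzevii grows better at low temperature than S. cerevisiae does. The study describes Lalvin W27 as allotriploid, with 5 chromosomes (numbers IV, V and IX, and also XIV with XV) that join parts of both parental genomes and are called chimeric here. The probes were ORFs of the S. cerevisiae strain S288c, so transcripts of both parental alleles can bind to 1 spot and are not told apart.

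The measure is the log2 ratio of hybrid over T73, positive where the hybrid is higher, and a value of 1 is a 2-fold difference. The sign of the deposited values was turned, as T73 over hybrid is the likely direction given the dyes and the directions in the text of the study, but the table itself does not state it. The hybrid carried Cy3 and T73 Cy5 on each array, so a difference of dye and a difference of strain cannot be told apart. The ORFs have systematic names only, which were not paired with gene names or functions. Such a name gives the chromosome, the left or right arm, the place counted outwards from the centromere and the coding strand, W for Watson or C for Crick, and the results are arranged by these. The 2 ORFs that the study places in an aroma group by systematic name are given as well.

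The labels of these 3 arrays were not all of one kind: title and description gave 28 °C, while the source entry gave 12 °C. Replicate A of W27 at 28 °C had a Spearman correlation of 0.29 with replicate B and of 0.24 with replicate C over ORFs, but of 0.52, 0.43 and 0.43 with replicate A of VIN7, B of W27 and C of W27, all at 12 °C. Replicate C of W27 at 28 °C correlated at 0.24 with A, at 0.11 with B and at 0.36 with replicate C of W27 at 12 °C. Replicate B had its highest correlation with A. The direction of replicate C of VIN7 at 28 °C is not settled, as it correlated negatively with most other arrays. Its lowest Spearman correlations were -0.73 with replicate C of W27, -0.63 with A of VIN7 and -0.51 with B of W27, all at 12 °C. With W27 arrays A, B and C at 28 °C it correlated at -0.30, -0.06 and -0.28. With its own replicates A and B it correlated only at 0.09 and 0.08. These are descriptions over the ORFs with a value on both arrays, which share the probes, and the counts below are given without single arrays where these moved them.

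The 3 arrays differed in centre and in spread. The median log2 ratio was 0.08 on array A, 0.30 on array B and -0.10 on array C, and the SD over ORFs was 1.17, 1.26 and 0.90 in the same order. On array A 13.1% of the ORFs were at least 2-fold higher in W27 and 9.57% at least 2-fold lower. The corresponding shares were 25.8% and 11.8% on array B and 10.3% and 9.80% on array C. Array B was thus the one shifted to higher ratios in W27. A few ORFs shared 1 identical floor value on arrays A and B, with 8 ORFs at -17.13 on array A and 2 ORFs at -17.14 on array B. The lowest value of array C, -15.69, was held by 1 ORF.

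**Figure D1:**
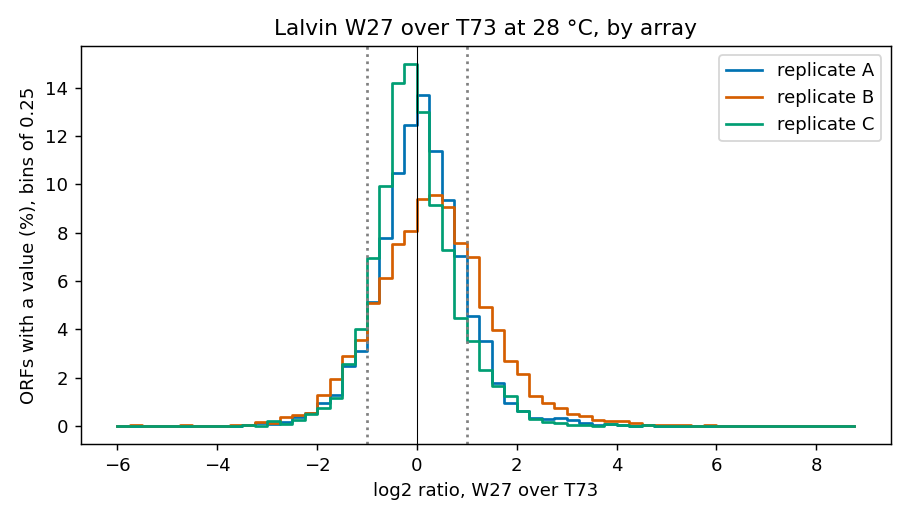
Share of ORFs (%, y axis) by log2 ratio of W27 over T73 at 28 °C (x axis, bins of 0.25) on each of the 3 arrays, with dotted lines at 2-fold. Array B lies to the right of the others with a median of 0.30, and 19, 6 and 7 ORFs of arrays A, B and C fall outside the axis.

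Most ORFs were less than 2-fold from T73 when the arrays were averaged. The mean log2 ratio had a median of 0.15 over the 6171 ORFs, with the lower quartile at -0.27 and the upper quartile at 0.53. The SD between the 3 arrays had a median of 0.66, which is more than the distance of either quartile from 0. With each array recentred on its own median the middle ORF was at 0.06. Of the 5982 ORFs with 3 values, 1134 (19.0%) were higher in W27 on all arrays and 876 (14.6%) were lower on all of them. Once recentred, 1020 were higher and 1100 lower, so which direction held more ORFs depended on the centring.

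A 2-fold difference that held on every array was less common. The rule of the study's methods is a median of at least 2-fold over 2 or more arrays. Applied to the values turned to hybrid over T73, it gave 479 ORFs (7.76%) that were higher and 375 (6.08%) that were lower in W27. After recentring 383 were higher and 429 lower. These counts are not those of the study. For the same hybrid and temperature the study lists more genes in each direction, and more down regulated than up regulated ones. The reason for this difference was not tested. At least 2-fold on each of the 3 arrays were 49 ORFs (0.819%) that were higher in W27 and 112 ORFs (1.87%) that were lower. The lower ORFs held together better. Among the ORFs that passed the median rule with 3 values, 277 of 367 lower ones (75.5%) had the same direction on all arrays, against 249 of 454 higher ones (54.8%). The SD between arrays had a median of 0.58 for the lower ORFs and 0.99 for the higher ones. Array C was the one that most often held back the higher ORFs, as 274 of the 454 were under 2-fold on it, whereas 83 were under 2-fold on array A and 48 on array B. Without array C, 877 ORFs passed as higher. The shares with 1 direction and the counts by array were made without recentring, and array C had the lowest median, at -0.10. With each array recentred, 43 ORFs were at least 2-fold higher on each array and 136 lower. These are counts over values that define the sets, and they carry no test.

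The 112 lower ORFs had means between -1.09 and -6.63, with a median of -1.83, and the 49 higher ORFs had means between 1.08 and 5.60, with a median of 1.93. On arrays A, B and C of W27 at 28 °C the median of the 112 lower ORFs was -1.78, -1.77 and -1.73. The same ORFs had medians of -0.98, -1.06 and 2.35 on arrays A, B and C of VIN7 at 28 °C, and of -0.57, -0.93 and -2.19 on those of W27 at 12 °C. All W27 arrays and the first pair of VIN7 arrays thus had them lower than T73, and replicate C of VIN7 had them higher. The 49 higher ORFs had medians of 1.82, 2.18 and 1.42 on the W27 arrays at 28 °C. Their medians were 0.91, 1.16 and -0.50 on the VIN7 arrays at 28 °C, and 0.39, 0.96 and 1.34 on the W27 arrays at 12 °C. Again replicate C of VIN7 had the opposite sign. The sets were picked on the W27 arrays at 28 °C, both hybrids at 28 °C were set against T73 of that temperature, and no test was made of these values.

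**Figure D2:**
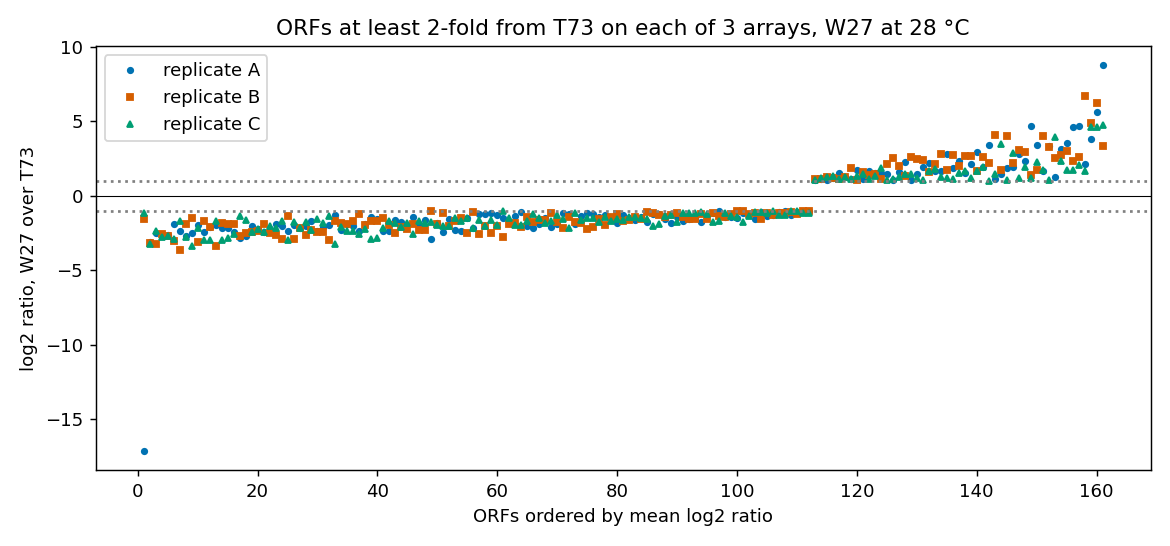
Log2 ratio of W27 over T73 at 28 °C (y axis) on each array for the 161 ORFs that were at least 2-fold from T73 on all 3 arrays, ordered by their mean (x axis), with dotted lines at 2-fold. The 112 lower ORFs lie close together except 1 at -17.13 on array A, and the points of the 49 higher ORFs spread more widely between arrays.

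When each ORF was tested against 0 with limma, 2 ORFs rose in W27 and none fell at an adjusted p under 0.05. This is 0.0324% of the 6171 ORFs tested for the higher ones. At an unadjusted p under 0.05 there were 379 higher (6.14%) and 241 lower ORFs (3.91%). With each array recentred on its median these were 304 higher and 309 lower. The 95% confidence interval of a mean reached 1.04 to either side on the log2 scale for the median ORF, which is about the size of the 2-fold limit. Of the ORFs that were at least 2-fold on each array, 45 of the 49 higher and 101 of the 112 lower ones had an unadjusted p under 0.05, and the smallest adjusted p among the lower ones was 0.236. These ORFs were picked on the same values, so a small unadjusted p was largely set by the choice and is no support for them. Arrays of a group may share fermentations, as the methods give fewer fermentations than hybridizations, so the p-values measure the spread between these arrays.

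YOR202W, on the right arm of chromosome XV, had log2 ratios of 5.59, 6.21 and 4.62 on arrays A, B and C of W27 at 28 °C. It was at 3.37, 5.32 and 0.75 on the arrays of VIN7 at 28 °C and at 0.83, 2.78 and 3.96 on those of W27 at 12 °C. With the sign of all arrays turned alike, it was higher than in T73 on all 9 arrays. Replicate C of VIN7 would be at -0.75 if it ran the other way. The W27 arrays at 28 °C lay above all those of W27 at 12 °C but overlapped with VIN7. The mean in W27 at 28 °C was 5.47 ± 0.80 (SD, n = 3), or 44.5-fold, and rose against T73 with an adjusted p of 0.0335 (limma). Over 19 alternatives its adjusted p lay between 0.00378 and 0.667 and passed in 12 of them. It was 0.175 without array A, 0.667 without array B and 0.0681 without replicate B of W27 at 12 °C, 0.0763 when VIN7 array C was reversed in sign and 0.0712 with a running median subtracted. The call was also lost with extremes set to quantiles and with a block for the replicate letter. Some alternatives, such as leaving out arrays of the other groups, did not change the W27 values at 28 °C.

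YKL131W, on the left arm of chromosome XI, had log2 ratios of 3.82, 4.88 and 4.57 on the W27 arrays at 28 °C. Its ratios were 4.49, 3.75 and 0.87 on the VIN7 arrays at 28 °C and 0.77, 1.69 and 3.71 on the W27 arrays at 12 °C. With the sign of all arrays turned alike, no array was below T73, and replicate C of VIN7 would be at -0.87 if it ran the other way. The W27 arrays at 28 °C were above those at 12 °C with no overlap. The mean of 4.42 ± 0.54 (SD, n = 3), or 21.5-fold, rose with an adjusted p of 0.0411 (limma). The call held in 9 of 19 alternatives, with adjusted p between 0.00412 and 0.667. Leaving out an array of W27 at 28 °C ended it each time, with 0.175 without A, 0.667 without B and 0.153 without C, and it was 0.0783 without replicate B of W27 at 12 °C, 0.0803 when VIN7 array C was reversed in sign, 0.0619 with recentred arrays and 0.0712 with a running median subtracted. The call of YKL131W was also lost with scaled arrays, at 0.0628, with extremes set to quantiles and with a block for the replicate letter. The next ORF in order had an adjusted p of 0.0802.

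The lowest means with 1 direction on all arrays each rested on array A. YDR263C, on the right arm of chromosome IV, was at -17.13, -1.57 and -1.19 in W27 at 28 °C, the first of these being the floor value of array A. It was at 0.25, -17.71 and 0.23 in VIN7 at 28 °C and at 0.32, 1.56 and 1.81 in W27 at 12 °C. Its mean of -6.63 ± 9.10 (SD, n = 3) had an adjusted p of 0.495 (limma), and without array A the mean was -1.38. YJL094C, on the left arm of chromosome X, was at -9.30, -0.86 and -1.78 in W27 at 28 °C. It was at -0.01, -0.91 and 0.97 in VIN7 at 28 °C and at -0.29, -1.04 and -1.002 in W27 at 12 °C. The mean in W27 at 28 °C was -3.98 ± 4.63 (SD, n = 3) with an adjusted p of 0.320 (limma), and -1.32 without array A.

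YMR210W, which the study lists with the genes of ester production, had ratios of -0.39, 0.62 and -0.55 in W27 at 28 °C. They were -0.43, 1.82 and 1.17 in VIN7 at 28 °C and -0.12, -1.60 and -1.89 in W27 at 12 °C. The arrays of W27 at 28 °C lay on both sides of T73, with a mean of -0.11 ± 0.64 (SD, n = 3) and an adjusted p of 0.963 (limma). The interval of that mean ran from -1.16 to 0.95. YIR007W, listed there with glycosidases and glucanases, which release aroma compounds bound to sugars, had ratios of 1.41, 0.29 and -0.23 in W27 at 28 °C. They were 0.32, 2.09 and -0.24 in VIN7 at 28 °C and -0.48, 1.96 and 0.81 in W27 at 12 °C. Its mean of 0.49 ± 0.84 (SD, n = 3) had an adjusted p of 0.831 (limma) and an interval from -0.82 to 1.80, and was 0.03 without array A and 0.85 without array C. For both ORFs the groups overlapped.

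**Figure D3:**
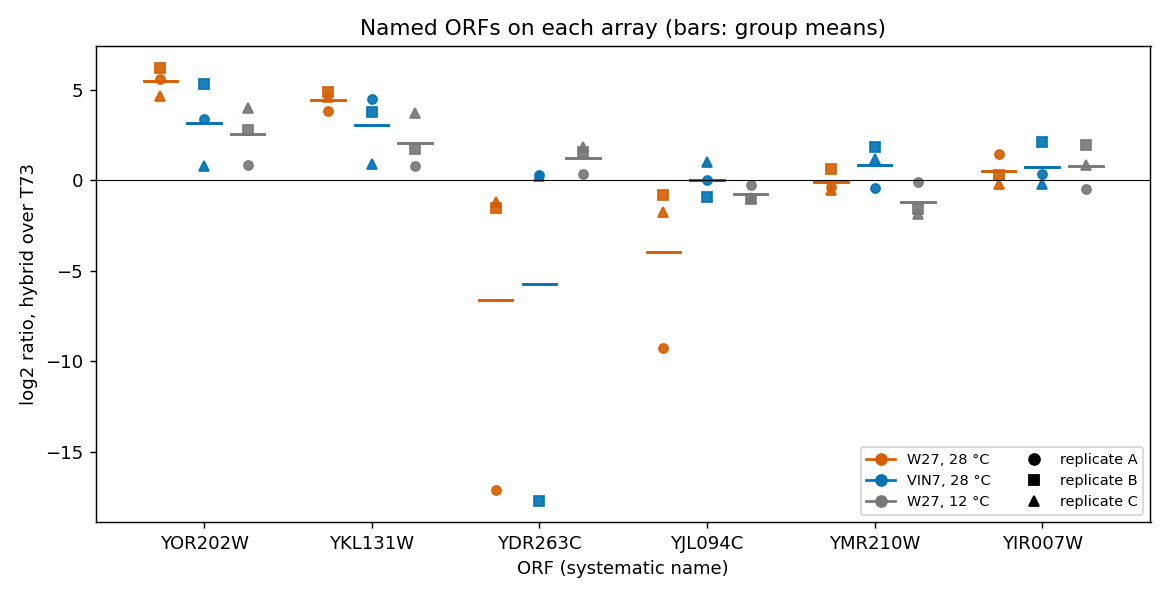
Log2 ratio of hybrid over T73 (y axis) of the 6 named ORFs (x axis) on the arrays of W27 at 28 °C, VIN7 at 28 °C and W27 at 12 °C, with bars at the group means of 3 arrays. YOR202W and YKL131W are above 0 on every array with all signs turned alike (-0.75 and -0.87 on VIN7 array C if it is reversed in sign). The low means of YDR263C and YJL094C in W27 at 28 °C come from array A at -17.13 and -9.30.

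By chromosome, the first ones by number stood out in W27 at 28 °C. The median of chromosome I, with 110 ORFs, lay 0.72, 0.30 and 0.19 above the median of arrays A, B and C. That of chromosome III, with 206 ORFs, lay 0.91, 0.32 and 0.10 above it. On both chromosomes the order of the arrays was the same, with the smallest shift on array C. Chromosome IV, with 793 ORFs, was 0.42, 0.07 and 0.09 above. Chromosome II was at 0.51, -0.10 and 0.02 from the median of these arrays. By the median rule 28 of the 110 ORFs of chromosome I (25.5%) and 50 of the 206 of chromosome III (24.3%) were at least 2-fold higher, beside 7.76% of all ORFs. On each array at least 2-fold higher were 2 ORFs (1.92%) of chromosome I and 2 ORFs (1.10%) of chromosome III, beside 0.819% of all ORFs. Without array A the mean shift was 0.24 for chromosome I and 0.21 for chromosome III, against 0.40 and 0.44 with it. The arrays of the other groups had shifts there too, and on chromosomes II and IV. Chromosome II was 0.36, 1.02 and 0.33 above the median of the array in VIN7 at 28 °C and 0.24, 0.33 and 0.27 above it in W27 at 12 °C. For chromosome IV the shifts were 0.13, 0.48 and 0.21 in VIN7 at 28 °C and 0.14, 0.18 and 0.12 in W27 at 12 °C. Chromosome I was 0.62, 0.71 and -0.996 from the median of the array in VIN7 at 28 °C and 0.31, 0.87 and 1.04 from it in W27 at 12 °C. Chromosome III was 0.56, 1.45 and -0.04 from the median of the array in VIN7 at 28 °C and 0.27, 1.12 and 0.76 from it in W27 at 12 °C.

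**Figure D4:**
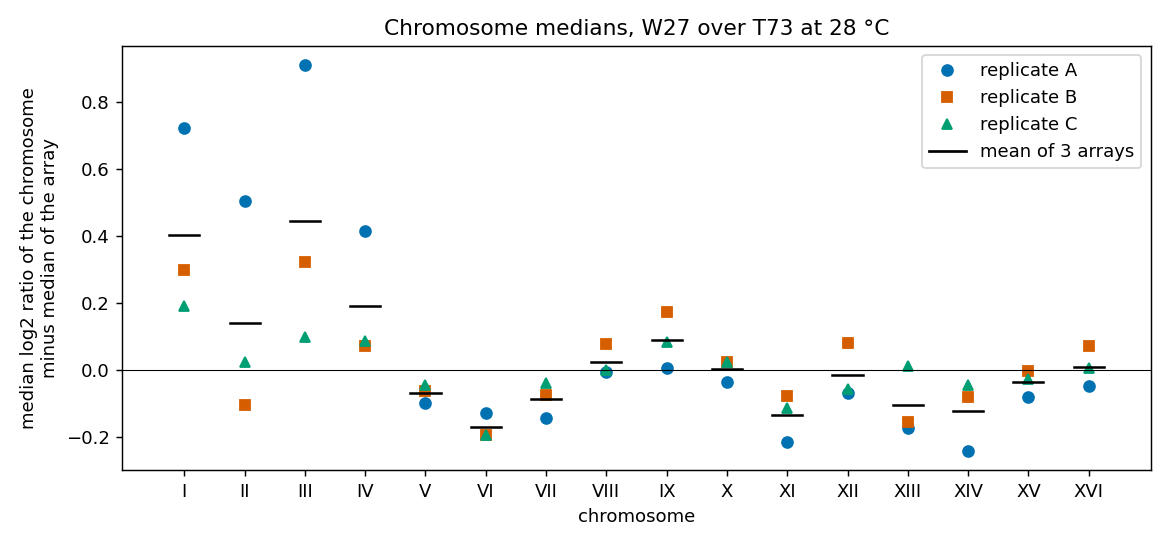
Median log2 ratio of each chromosome minus the median of the array (y axis) for the 16 chromosomes (x axis), W27 over T73 at 28 °C, 1 point for each array and a bar at their mean. Chromosomes I and III are highest, at 0.72 and 0.91 on array A, and chromosomes V to XVI lie between -0.24 and 0.175 on every array.

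Of 16 chromosomes, 4 (I, III, IV and IX) had medians above that of the array on all 3 arrays, and 6 (V, VI, VII, XI, XIV and XV) had medians below it. Chromosome VI was lowest on average, with -0.13, -0.19 and -0.19. The 5 chromosomes described as chimeric in W27 did not move as 1 group. Among them IV and IX were above the median of the array and V, XIV and XV below it. Some of these shifts were near 0, with IX at 0.008 on array A and XV at -0.003 on array B. The median of the array includes the raised chromosomes, so a place below it is relative to them. Together their 2267 ORFs were 0.04, 0.01 and 0.01 above it on arrays A, B and C, and the 3904 ORFs of the other chromosomes were at -0.02, -0.00 and -0.00. At least 2-fold higher by the median rule were 182 ORFs (8.03%) of the chimeric and 297 (7.61%) of the other chromosomes, and 133 (5.87%) and 242 (6.20%) were at least 2-fold lower.

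Ratios also varied along the order of names within chromosomes, and differently on each array. Between direct neighbours the Spearman correlation of log2 ratios was 0.16 on array A, -0.01 on array B and 0.08 on array C. Between next but one neighbours it was 0.15, 0.16 and 0.05 on these arrays. On array B direct neighbours were thus less alike than next but one neighbours. Subtracting a running median over 51 ORFs in name order takes out the shift of any whole chromosome by its construction, so it says nothing of where the shifts come from. The part of spot layout in these shifts was not tested, as the place of the spots on the slides was not used here.

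**Figure D5:**
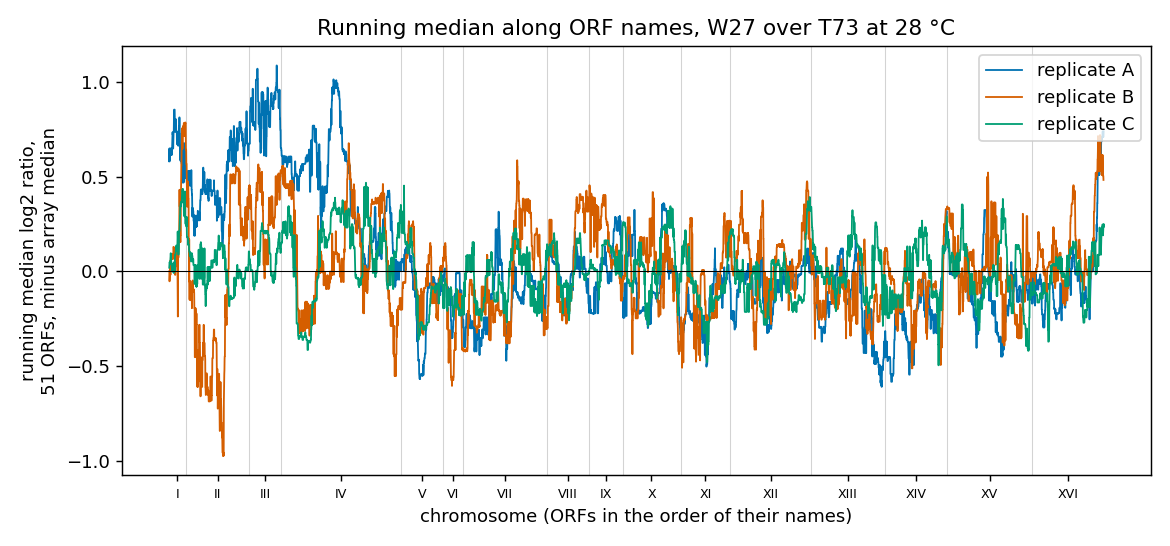
Running median over 51 ORFs of the log2 ratio of W27 over T73 at 28 °C, minus the median of the array (y axis), along the ORFs in name order with chromosomes marked (x axis), for each array. Array A stays above 0 from chromosome I into chromosome IV, array B is below 0 in part of chromosome II, and array C is below 0 early in chromosome IV.

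The ends of chromosomes held more extreme ORFs in both directions. Of the ORFs among the 10 outermost of each arm, 318 had values, and their median lay 0.12, 0.16 and 0.15 above that of arrays A, B and C. At least 2-fold higher by the median rule were 48 of them (15.1%), and 30 (9.43%) were at least 2-fold lower, beside 7.76% and 6.08% of all ORFs. On each array at least 2-fold higher were 8 of 298 (2.68%) and lower 9 of 298 (3.02%), beside 0.819% and 1.87%. The next 10 ORFs inwards were at 8.12% higher and 6.88% lower, and the 10 nearest the centromere at 5.64% and 6.90%. Without array B 8.49% of the outermost ORFs were at least 2-fold higher, beside 5.77% of the remaining ORFs, and without array C 23.0%, beside 13.7%. When the running median was subtracted these shares were 9.43% and 4.97%. The median of the outermost ORFs also lay above that of the array on all VIN7 arrays at 28 °C and on arrays B and C of W27 at 12 °C. On array A of W27 at 12 °C it was level with that of the array. The mean shift was 0.22 in VIN7 at 28 °C and 0.20 in W27 at 12 °C, beside 0.14 in W27 at 28 °C. Replicate C of VIN7, whose direction is not settled, was at 0.128 and would lie below the median of the array if its sign were turned. The 2-fold shares of these ORFs in the other groups were not counted. Many ORFs near yeast telomeres belong to repeated families whose copies can bind to one another's spots. By coding strand there was little to see, with 7.86% higher among 3093 Watson ORFs and 7.67% among 3076 Crick ORFs.

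W27 was then set against the other hybrid at 28 °C. No ORF passed an adjusted p under 0.05 for W27 minus VIN7 in limma, with 6162 ORFs tested and a smallest adjusted p of 0.475. At an unadjusted p under 0.05, 186 ORFs (3.02%) were higher and 369 (5.99%) lower in W27 than in VIN7. When VIN7 array C was reversed in sign, 86 ORFs were higher and 51 lower, and none passed after adjustment. The arrays of the hybrids did not overlap for 362 ORFs with W27 higher (6.39% of 5662) and for 417 with W27 lower (7.36%). With that sign turned these were 183 ORFs (3.23%) and 112 ORFs (1.98%). Arrays were not recentred for these counts. Where 3 against 3 arrays differ only at random, they separate in one or the other direction with a probability of 0.1. The interval of such a difference reached 1.48 to either side on the log2 scale for the median ORF, so a 2-fold difference lay within it.

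For W27 at 28 °C minus W27 at 12 °C no ORF passed either, with 6169 ORFs tested and a smallest adjusted p of 0.751 (limma). At an unadjusted p under 0.05, 230 ORFs (3.73%) were higher and 120 (1.95%) lower at 28 °C. With each array recentred these were 150 higher and 188 lower. The arrays did not overlap for 587 ORFs with 28 °C higher (9.94% of 5907) and for 290 with 28 °C lower (4.91%). Such counts were made without recentring. For 3 against 3 arrays that differ only at random, a separation in one or the other direction has a probability of 0.1. For YOR202W the difference was 2.95 with a standard error of 1.08 and an adjusted p of 0.751 (limma), and for YKL131W it was 2.37 with a standard error of 0.95. T73 differed between the temperatures, so a change of T73 and a change of W27 cannot be told apart here.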

How the data were processed

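Each array compared cDNA of a hybrid with cDNA of T73 on PCR-amplified S288c ORFs. The authors read the scans in GenePix Pro with global background subtraction and normalized in Acuity. They dropped spots that were not found and adjusted for print tips manually. What they deposited is 1 log2 ratio for each feature and array. Without spot intensities, signal over background is unknown here. Precision is limited by how few arrays there are. The sign was turned to hybrid over T73, and 2 control features were left out.

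A single limma model (version 3.58.1, R 4.3.3) with 1 mean for each of 4 groups, 12 arrays in all, was fitted, moderated by eBayes and adjusted by Benjamini-Hochberg over all ORFs tested, for W27 at 28 °C against 0 and against both other groups, after a check on simulated data. Alternatives were recentring, scaling, extremes set to quantiles, other priors, weights and thresholds, a running median over 51 ORFs, a block for the replicate letter and leaving out arrays.

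The 3 arrays and the analyses were chosen with earlier results of these data known. The table does not pair ORFs with gene names. The planned gene lists were first examined with gene names supplied from memory and then left out, since no annotation backed those names. The planned rule for named genes needed such symbols too, so ORFs named are instead, by a choice made after their values were seen, the 2 called ones, the 2 lowest means with 1 direction on all arrays, and 2 named in the study. The counts on each array, by chromosome and by chromosome end were added after seeing the data. Python 3.11.15, pandas 2.3.3 and matplotlib were used.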

Additional observations from a re-analysis of the deposited data

Results flagged for a closer look

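Chromosome IX, one of the chimeric chromosomes of W27, was above the median of the array on all 3 arrays of W27 at 28 °C and below it on all 3 of VIN7 at 28 °C, with a mean difference of 0.14 on the log2 scale over 222 ORFs. It was also below on all 3 arrays of W27 at 12 °C, with a mean difference of 0.13. The left arm of chromosome V, with 81 ORFs, was above on the W27 arrays at 28 °C and below on the VIN7 arrays at 28 °C, with a mean difference of 0.26. These differences were singled out because the groups lay on opposite sides, among 16 chromosomes and 32 arms, and were not tested further. When VIN7 array C at 28 °C was reversed in sign, chromosome IX was at 0.03 and the left arm of chromosome V at 0.16 on that array, both within the range of W27 at 28 °C, and the mean differences from VIN7 were 0.12 and 0.15. The smallest shift of chromosome IX in W27 at 28 °C was 0.01, on array A.

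YDR263C was below T73 on all arrays of W27 at 28 °C and above it on all arrays of W27 at 12 °C, with a difference of -7.86 in means and an adjusted p of 0.751 (limma). The difference holds the floor value of array A. Groups of 3 arrays were not searched for single outlying values.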

How the results depend on the processing

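The 2 calls in W27 against T73 at 28 °C were 0 with the replicate block, 1 with recentred arrays, 0 with extremes set to quantiles, 0 with the sign of VIN7 replicate C at 28 °C turned and 0 with the running median removed. Leaving out single arrays gave between 0 and 7 calls, with 0 without array A or B of W27 at 28 °C, 5 without its array C, 7 without VIN7 replicate C at 28 °C and 0 without W27 replicate B at 12 °C. Leaving out arrays of the other groups was chosen after seeing the data. The cause of these changes was not tested. Both comparisons between groups had 0 calls in every alternative run. The replicate letters do not pair the arrays, as the deviations of same-letter arrays A, B and C of W27 at 28 °C correlated at -0.03, -0.09 and 0.06 with VIN7 at 28 °C, at -0.14, -0.04 and 0.15 with W27 at 12 °C and at 0.15, 0.05 and 0.08 with VIN7 at 12 °C. With the block the adjusted p (limma) was 0.0539 for YOR202W and 0.103 for YKL131W, and no other call changed. The counts of at least 2-fold higher and lower ORFs, 479 and 375, were 1290 and 974 at 1.5-fold, 46 and 47 at 4-fold, and the lower count was 639 with scaled arrays. Leaving out an array of W27 at 28 °C gave between 365 and 877 higher ORFs and between 387 and 432 lower ones. The mean of YMR210W changed sign to 0.055 with the running median removed, and single arrays left out gave between -0.469 and 0.12, with 0.03 without array A and 0.12 without array C. ORFs at least 2-fold on each array, 49 higher and 112 lower, were 166 and 263 at 1.5-fold, and 170 were lower with scaled arrays. Alternatives for the planned gene lists were not run, as those lists were left out for want of an annotation. Higher ORFs were 56.1% of those past 2-fold with the arrays not adjusted further and 44.0% with the running median removed. Which ORFs lay near background is unknown without intensities.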
